A study of Mus musculus with 9 samples.

Results

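RNA polymerase I (Pol I) and RNA polymerase III (Pol III) are represented here by 10 genes of the 55367 in the deposited table of mouse osteosarcoma. They were chosen by gene symbol, not by a measured value. The 10 genes are the Pol I subunits Polr1a, Polr1b, Polr1c and Polr1e, the Pol I initiation factors Rrn3 and Ubtf, the Pol III subunits Polr3b, Polr3g and Polr3k, and the Pol III initiation factor Brf2. All 10 had enough counts to be tested.

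Whole osteosarcoma tumors of genetically engineered mouse models (GEMMs) were sequenced, 4 p53-driven and 5 Myc-knockin. The p53-driven mice had the genotype Col2.3-Cre/TrpP53fl/+, in which the osteoblast promoter Col2.3 drives Cre recombinase and deletes 1 floxed allele of Trp53. The Myc-knockin mice carried Cre, p53fl/+ and in addition the Lox-Stop-Lox (LSL) allele c-MycT58A, so that Cre also switches on a MYC with the T58A change. Both groups thus carry the same floxed Trp53 allele and no group lacks Cre. Age and sex are not given in the labels. The authors report a shorter median time to sacrifice in the Myc-knockin than in the p53-driven model, so age may differ between the groups. The tumors were spontaneous and resected whole, so each library holds RNA of tumor cells and of every other cell in the tissue. In such bulk samples, fewer cells of a type and less RNA per cell cannot be told apart. Tumors are named by the table's columns, with F for p53-driven and M for Myc-knockin.

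Pol I transcribes the ribosomal RNA precursor in the nucleolus. UBF, encoded by Ubtf, keeps the ribosomal genes open, the factor SL1 marks their promoter, and RRN3 (TIF-IA) bridges SL1 to the polymerase. Pol III makes the short RNAs of translation and RNA processing, including transfer RNAs and the 5S ribosomal RNA, and is brought to its genes by TFIIIB, which contains either BRF1 or BRF2. MYC is known to raise the output of both enzymes, and growing tumors depend on both for ribosomes and transfer RNA.

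The promoters of Polr1b and Polr1e are shown because these are the members whose difference passed the test, and that of Rrn3 because it holds the E-box CACGTG, the best-known site of MYC and its partner MAX. Each sequence is the 250 bases before the RefSeq transcription start in build GRCm38.p6, on the plus strand, at chr2:129100746-129100995 for Polr1b, chr4:45018359-45018608 for Polr1e and chr16:13780449-13780698 for Rrn3. Capitals mark CACGTG.

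Polr1b: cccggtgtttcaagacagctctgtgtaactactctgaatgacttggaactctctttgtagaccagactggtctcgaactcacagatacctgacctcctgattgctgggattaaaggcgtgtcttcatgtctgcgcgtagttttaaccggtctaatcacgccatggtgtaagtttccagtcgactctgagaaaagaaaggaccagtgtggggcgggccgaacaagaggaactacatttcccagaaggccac

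Polr1e: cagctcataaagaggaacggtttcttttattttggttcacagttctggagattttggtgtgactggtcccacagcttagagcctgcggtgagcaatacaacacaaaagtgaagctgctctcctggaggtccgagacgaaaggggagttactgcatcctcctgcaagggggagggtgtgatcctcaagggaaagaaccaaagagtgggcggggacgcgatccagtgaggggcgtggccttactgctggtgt

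Rrn3: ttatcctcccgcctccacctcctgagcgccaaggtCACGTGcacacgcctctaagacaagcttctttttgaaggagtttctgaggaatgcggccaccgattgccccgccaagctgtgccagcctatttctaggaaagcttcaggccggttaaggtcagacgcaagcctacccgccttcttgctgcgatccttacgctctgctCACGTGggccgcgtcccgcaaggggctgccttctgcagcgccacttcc

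Between 250 bases before and 50 bases after the start, 7.15% of 32851 RefSeq promoters held CACGTG, which reads the same on both strands. Counted by gene, at least 1 promoter of 8.09% of 27025 genes held CACGTG. Of the 9 members with a promoter entry only Rrn3 held it, at 215 and at 48 bases before the start. The related CACGCG, searched on both strands as CACGCG and CGCGTG, was in 9.27% of all promoters and, counted by gene, in 10.5% of genes. It was found in Polr1c, where both matches lie next to each other, in Polr1e after the start and so outside the bases shown, in Polr3g, in Polr3k and in some of the promoters of Ubtf. Neither motif was found in Polr1a, Polr1b or Polr3b. A missing match says only that these letters are not in this window. Brf2 had no entry.

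The libraries differ in ways that touch the results. Total counts ranged from 2716322 to 17073285. Satellite-repeat genes took 44.3% of the counts in F187, 67.9% in M351, 23.2% in M408 and 81.0% in M9, and at most 0.0242% in the other 5 libraries. M624 and M664 stood apart in the RNAs they hold. Rn7sk, the small nuclear RNA that restrains the elongation factor P-TEFb and is itself made by Pol III, was at 3.47 and 6.35 in these and between 6545 and 10667 in the other 7, in CPM, counts scaled by edgeR to the TMM-normalized library size. Globin genes were at or near 0 in those 7 and present in M624 and M664. Results are therefore also given for the 7 tumors without M624 and M664, 3 Myc-knockin and 4 p53-driven. Myc itself, the knocked-in gene, had between 144 and 1045 CPM in the Myc-knockin and between 43.5 and 67.1 CPM in the p53-driven tumors, with a log2 fold change of 3.41 (SE 0.59, edgeR adjusted p = 0.0217).

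Polr1b and Polr1e, both specific to Pol I, were higher in the Myc-knockin tumors, about 3-fold each, and the other 8 members did not pass the test. A call required a fold change exceeding 1.5 together with an adjusted p under 0.05, from edgeR's quasi-likelihood F test corrected by Benjamini-Hochberg across the 15365 genes tested. Of the 10 members, 2 were called higher and 0 lower (4 and 0 at an unadjusted p under 0.05), beside 2.26% of all genes tested called higher. Counts at an unadjusted p under 0.05, here and below, are given without the share of all genes tested at that threshold. Such a p is weak here, since Polr3b, at an unadjusted edgeR p of 0.0446, had an adjusted p of 0.174. The log2 fold change was above 0 for 9 members, with a median of 0.61, and the median of all genes tested was 0.14. The groups did not overlap, with every Myc-knockin tumor above every p53-driven tumor, for the same 2 members, beside 5.41% of all genes tested. In the 7 tumors, Polr1b and Polr1e were again the 2 members called, beside 1.8% of the genes tested in that fit. DESeq2 also called these 2, beside 6.59% of the genes it tested.

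**Figure D1:**
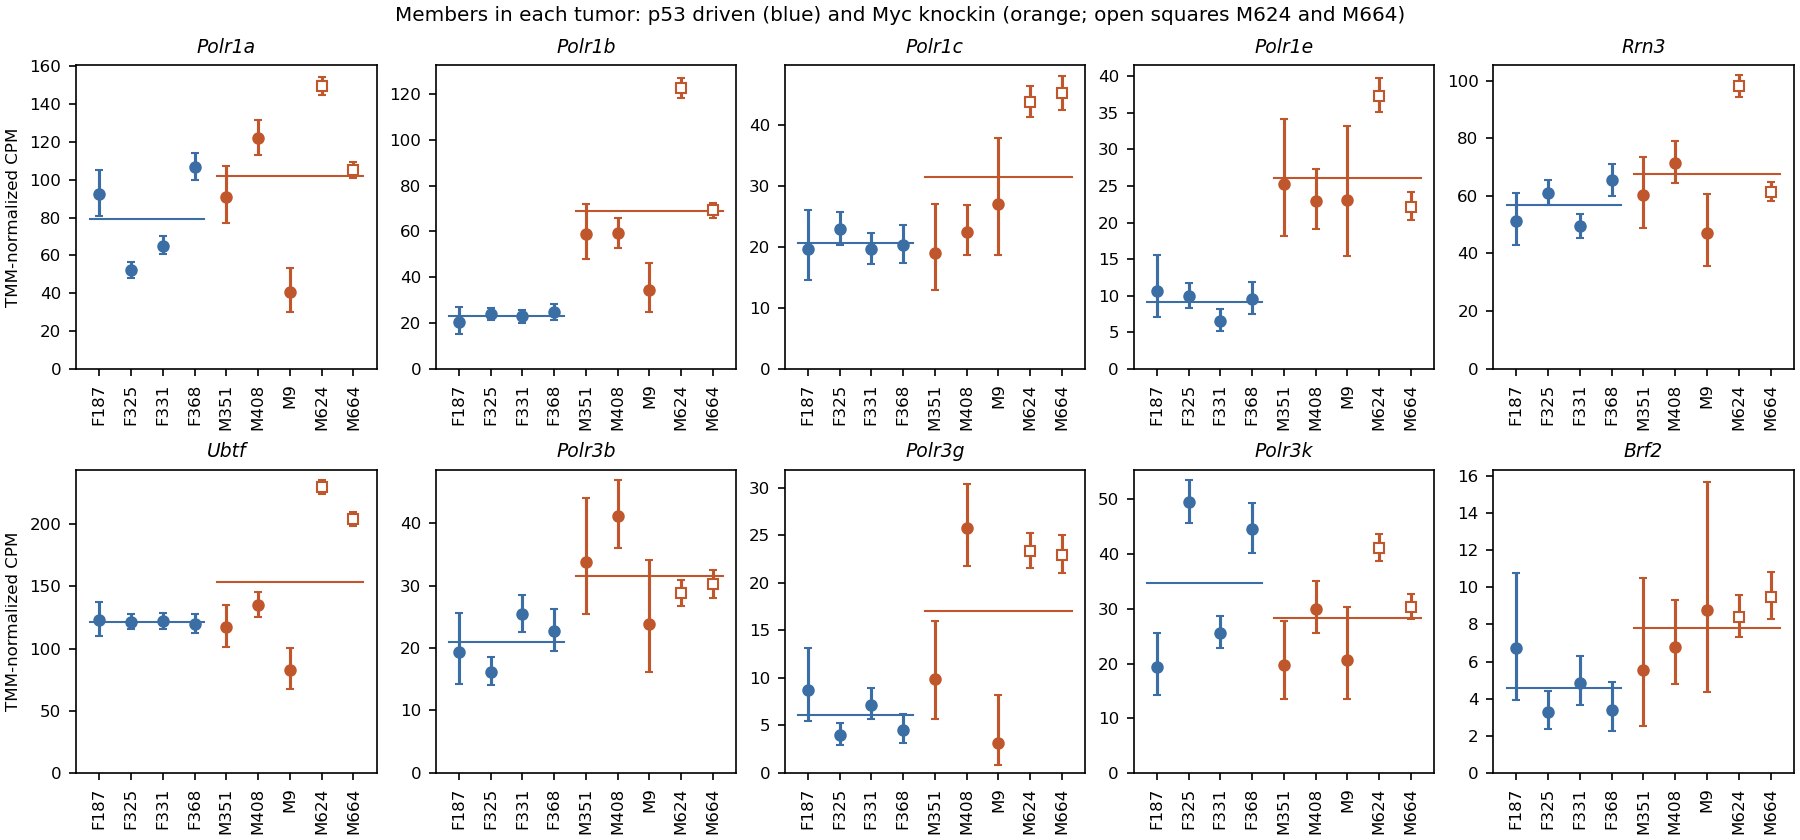
TMM-normalized CPM of each of the 10 members (vertical axes, from 0) in each of the 9 tumors (horizontal axes), with exact 95% Poisson intervals that cover counting error only and a line at each group's mean. Polr1b and Polr1e separate the 4 p53-driven tumors (blue) from the 5 Myc-knockin tumors (orange), and Ubtf is nearly level in the p53-driven tumors, between 120 and 123 CPM.

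Polr1b encodes the second largest Pol I subunit, which completes the active centre. It lies on the plus strand of chromosome 2 of mm10 from 129100995 to 129126594 (ENSMUSG00000027395). Its level was 20.5 CPM in F187, 23.7 in F325, 22.8 in F331 and 24.7 in F368. In the Myc-knockin tumors it was 59.1 in M351, 59.2 in M408, 34.3 in M9, 123 in M624 and 69.2 in M664. The p53-driven tumors lay close together, and the lowest Myc-knockin tumor, M9, was still above all of them. The means were 68.9 ± 32.8 (SD, n = 5) and 22.9 ± 1.77 CPM (SD, n = 4), and the log2 fold change was 1.59 (SE 0.35, edgeR adjusted p = 0.0320). A two-sided exact permutation test gave p = 0.0159, the smallest that 5 tumors against 4 allow. Among the 7 tumors, which leave out the highest pair, the log2 fold change was 1.22 (SE 0.26, edgeR adjusted p = 0.0408). M9 rested on 43 counts, which give an exact 95% Poisson interval of 24.8 to 46.1 CPM, and 16.6% of those counts would be matched by the library's estimated genomic background. Among the Myc-knockin tumors the order of Polr1b was that of Myc, from M9 at the bottom to M624 at the top, but M351 and M408 differed by less than their counting error in Polr1b. Polr1e did not follow this order, with M664 lowest and M351 second highest. Ubtf, which was not called, did follow it. So did the counts outside satellite genes, from 671790 in M9 to 17073254 in M624. The part of Myc or of library depth in this order was not tested.

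Polr1e encodes PAF53, a peripheral Pol I subunit that pairs with the product of Cd3eap and takes part in initiation. It lies on the plus strand of chromosome 4 from 45018583 to 45036565 (ENSMUSG00000028318). Its level was 10.7 CPM in F187, 9.88 in F325, 6.49 in F331 and 9.48 in F368. In the Myc-knockin tumors it was 25.2 in M351, 22.9 in M408, 23.1 in M9, 37.4 in M624 and 22.2 in M664. Apart from M624 the Myc-knockin tumors lay close together, and each had over double the highest p53-driven level. The means were 26.2 ± 6.37 (SD, n = 5) and 9.13 ± 1.83 CPM (SD, n = 4). This was a log2 fold change of 1.53 (SE 0.30, edgeR adjusted p = 0.0252; exact permutation p = 0.0159). In the 7 tumors it was 1.45 (SE 0.25, edgeR adjusted p = 0.0329). The level in M664 was the lowest of its group, whereas that of Polr1b was the second highest there, so M624 and M664 were not the highest in every Pol I subunit.

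These calls rested on the small p53-driven group. With F187, F325, F331 or F368 left out, 0 members were called by edgeR and 2 to 4 had an unadjusted p under 0.05, with adjusted p between 0.0789 and 0.130 for Polr1b and between 0.0512 and 0.104 for Polr1e, while their log2 fold changes stayed between 1.40 and 1.62. Those 4 fits called between 0 and 133 genes higher in all. Scaling by library size alone also removed both calls (adjusted p 0.243 and 0.242), with log2 fold changes of 1.68 and 1.51.

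Polr1a, the largest and catalytic Pol I subunit, ranged from 40.6 to 150 CPM in the Myc-knockin and from 52.1 to 107 CPM in the p53-driven tumors. The lowest value, in M9, and the highest, in M624, were both from Myc-knockin tumors, and the groups overlapped. Between the groups the log2 fold change was 0.37, with a 95% confidence interval from -0.45 to 1.19 (edgeR adjusted p = 0.556). Polr1c encodes an assembly subunit that Pol I and Pol III share. It ranged from 19.6 to 22.9 CPM in the p53-driven tumors and was 19.1 in M351, 22.5 in M408, 27.1 in M9, 43.9 in M624 and 45.3 in M664. Only M9, M624 and M664 were above the p53-driven range, and M624 and M664 were far above it. Its log2 fold change of 0.62 (SE 0.31, edgeR adjusted p = 0.228) was 0.20 (SE 0.22) in the 7 tumors.

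Rrn3, whose product makes Pol I competent to start, ranged from 47.0 to 98.2 CPM in the Myc-knockin and from 49.4 to 65.4 CPM in the p53-driven tumors. Its log2 fold change was 0.26, with a 95% confidence interval from -0.32 to 0.84, so a change of 1.5-fold upward lies inside the interval. Ubtf was 123 CPM in F187, 121 in F325, 122 in F331 and 120 in F368. In the Myc-knockin tumors it was 118 in M351, 135 in M408, 82.9 in M9, 230 in M624 and 204 in M664. The p53-driven tumors were closer together than the counting error of each, the SD being 1.34 CPM, and the Myc-knockin tumors lay on both sides of them. Its log2 fold change was 0.34 (SE 0.32, edgeR adjusted p = 0.522) in all 9 tumors and -0.06 (SE 0.25, edgeR adjusted p = 0.905) in the 7 without M624 and M664. Without that pair it was 0.03 when M9 was also left out and 0.14 when genomic background was subtracted. Neither initiation factor passed the test in all 9 tumors.

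Polr3b encodes the second largest Pol III subunit. It was 19.4 CPM in F187, 16.2 in F325, 25.4 in F331 and 22.7 in F368, and 33.9 in M351, 41.2 in M408, 23.9 in M9, 28.8 in M624 and 30.2 in M664. All Myc-knockin tumors except M9 were above all p53-driven tumors. The difference was 0.60 on the log2 scale (SE 0.26, edgeR adjusted p = 0.174; two-sided exact permutation p = 0.0317), and 0.73 (SE 0.28, edgeR adjusted p = 0.140) in the 7 tumors. Here, unlike in Polr1b and Ubtf, M624 and M664 were not the highest, since M408 and M351 were above them.

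Polr3g encodes the variable RPC7 subunit of Pol III, which is abundant in stem cells and many transformed cells and has the broadly expressed paralog Polr3gl. It was 8.69 CPM in F187, 3.97 in F325, 7.18 in F331 and 4.50 in F368. It was 25.8 in M408, 23.4 in M624 and 23.0 in M664, but 9.85 in M351 and 3.19 in M9. The Myc-knockin tumors thus fell into 3 high ones and 2 within or close to the p53-driven range. The log2 fold change of 1.54 was close to those of Polr1b and Polr1e, but its SE was 0.54 and it did not pass (edgeR adjusted p = 0.103, exact permutation p = 0.143). M9 had only 4 counts of Polr3g, with a 95% Poisson interval of 0.868 to 8.16 CPM, no more than its background estimate, and M351 had 16, of which background would match 27.4%. With M9 left out, Polr3g was called (log2 fold change 1.79, edgeR adjusted p = 0.0293). That fit called 923 of 15315 genes higher, beside 348 of 15365 in all 9 tumors. Background subtraction was among the alternatives tried and left Polr3g uncalled.

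Polr3k, the small zinc-ribbon subunit with which Pol III cleaves and ends its transcripts, was the single member with a negative log2 fold change, -0.28 (SE 0.35, edgeR adjusted p = 0.637). It ranged from 19.7 to 41.2 CPM in the Myc-knockin and from 19.4 to 49.5 CPM in the p53-driven tumors. F325 and F368 were the highest of all 9, and the groups overlapped almost completely. Brf2 directs TFIIIB to Pol III genes with an upstream promoter, such as those of U6 and Rn7sk. It was 6.71 CPM in F187, 3.27 in F325, 4.84 in F331 and 3.40 in F368, and 5.54 in M351, 6.78 in M408, 8.76 in M9, 8.38 in M624 and 9.50 in M664. Only M351 lay within the p53-driven range. This gave a log2 fold change of 0.80 (SE 0.40, edgeR adjusted p = 0.228, exact permutation p = 0.0317), and M351 and M9 rested on 9 and 11 counts, of which background would match 39.8% and 35.9%. Brf2 shares 73 exon bases with Adgra2 on the other strand, Polr3b shares 247 with Gm17249 and Polr1a 185 with Gm26628, and the strand setting of the counting is not given in the sources used here. Polr1e lies over Fbxo10 with no shared exon base.

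**Figure D2:**
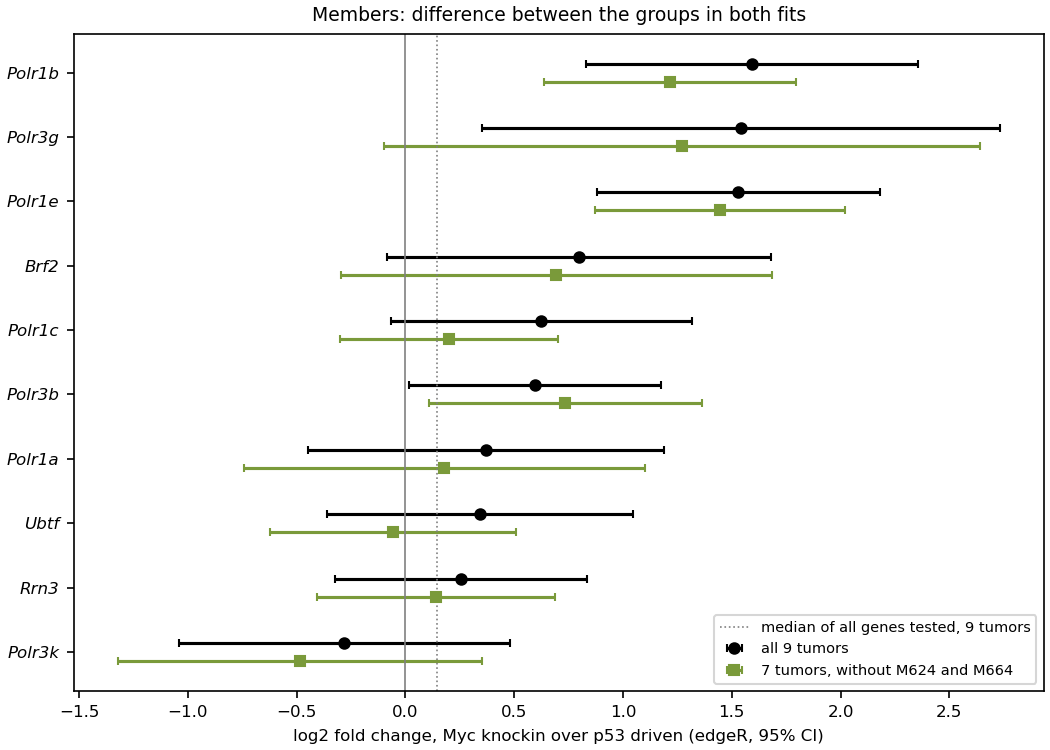
Log2 fold change of each member, Myc-knockin over p53-driven, with its 95% confidence interval from edgeR, in all 9 tumors (black circles) and in the 7 tumors without M624 and M664 (green squares). Polr1b and Polr1e keep intervals above 0 in both, from 0.83 to 2.36 and from 0.88 to 2.18 in all 9, and Ubtf moves from 0.34 to -0.06.

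In the 5 tumors whose libraries held almost no satellite reads, M624, M664, F325, F331 and F368, the members called higher were Polr1b, Polr1e, Polr3g, Polr1c and Ubtf. These are 5 of 10 members, beside 15.7% of the genes tested in that fit, and its Myc-knockin side is exactly the pair that stands apart, so genotype and library cannot be told apart there. Counted tumor by tumor, 9 members in M624, 8 in M408 and 7 in M664 were above the p53-driven range, beside 37.9%, 28.6% and 33.3% of all genes tested. In M351 and M9 the number was 4 each, beside 33.2% and 34.8%, and 2 and 4 members were below the range, beside 32.8% and 33.4%. The members thus stood mostly above the p53-driven range in M408, a library outside the pair, as well as in M624 and M664.

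Per kilobase of exon, Ubtf was the most abundant member in both groups, at 18.6 ± 0.204 (SD, n = 4) CPM per kilobase in the p53-driven tumors and 23.5 ± 9.35 (SD, n = 5) in the Myc-knockin tumors. Rrn3 came next, at 13.2 and 15.7, and Polr3g and Brf2 were the lowest, at 1.55 and 1.42 in the p53-driven and 4.33 and 2.43 in the Myc-knockin tumors. Polr1b moved from rank 7, level with Polr3b, to rank 4. In the p53-driven tumors the ranges of neighbours in this order were apart only between Ubtf and Rrn3 and between Polr1b and Polr1e, and in the Myc-knockin tumors all neighbours overlapped.

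Ratios between subunits within a tumor do not depend on how libraries are scaled, and 8 such ratios of counts per kilobase were compared after the values of the members had been seen. Polr1b over Polr2b, its counterpart in RNA polymerase II, was 0.167 in F187, 0.157 in F325, 0.168 in F331 and 0.150 in F368. It was 0.454 in M351, 0.317 in M408, 0.270 in M9, 0.762 in M624 and 0.724 in M664. The groups did not overlap, and the mean difference was 1.53 on the log2 scale (exact permutation p = 0.0159, Benjamini-Hochberg adjusted over the 8 ratios 0.0635). Without M624 and M664 the difference was 1.08, at the smallest p of 0.0571 that an exact permutation of 3 tumors against 4 allows. Polr2b itself had a log2 fold change of -0.04 (SE 0.26), and it shares 85 exon bases with Igfbp7 on the other strand.

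Within Pol I, Polr1b over Polr1a was between 0.992 and 1.72 in the Myc-knockin and between 0.454 and 0.931 in the p53-driven tumors, without overlap, a log2 difference of 1.17 (exact permutation p = 0.0159, adjusted 0.0635) and of 1.10 in the 7 tumors. Polr1e over Polr1a differed by 1.22 (exact permutation p = 0.0317, adjusted 0.0635), with M408 at 0.572 just below F325 at 0.577. Polr3b over Polr2b differed by 0.66 (exact permutation p = 0.0317, adjusted 0.0635) and Polr1b over Polr3b by 0.88 (exact permutation p = 0.0476, adjusted 0.0762). In the 7 tumors these were 0.62 (exact permutation p = 0.0571) and 0.46 (p = 0.171), and Polr1e over Polr1a was 1.39 (p = 0.114). The highest Polr1e over Polr1a was 1.73 in M9, from 29 and 51 counts, and the next was 0.844 in M351. Background would match 16.5% of the Polr1e counts and 28.7% of the Polr1a counts in M9. Polr3g over Polr3gl, Brf2 over Brf1 and Polr1a over Polr2a differed by 0.59, 0.24 and 0.52, with exact permutation p of 0.365, 0.460 and 0.175. Of the 8 ratios 0 had an adjusted p under 0.05, and Polr1b over Polr2b and over Polr1a were at the smallest unadjusted p.

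**Figure D3:**
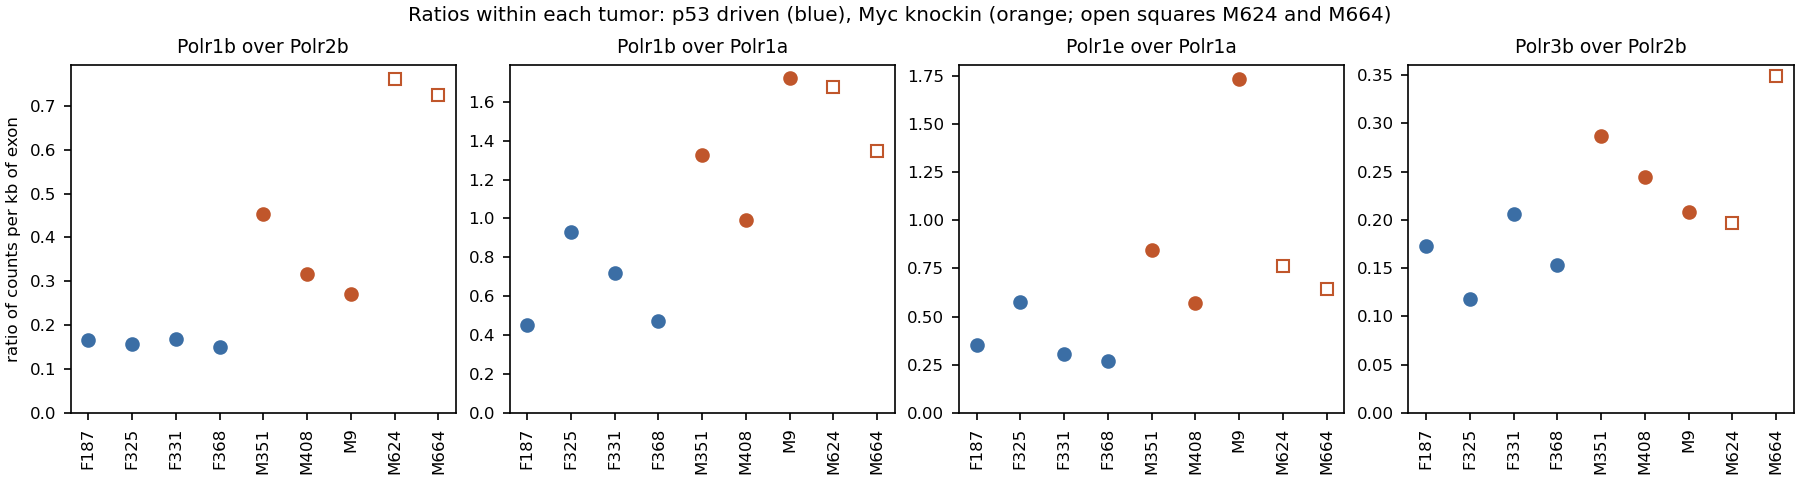
Ratio of counts per kilobase of exon (vertical axes, from 0) between pairs of subunits within each of the 9 tumors. Polr1b over Polr2b is between 0.150 and 0.168 in the p53-driven tumors (blue) and between 0.270 and 0.762 in the Myc-knockin tumors (orange, open squares for M624 and M664).

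The other genes of both pathways were taken from lists chosen by function. Among 4 other Pol I subunits edgeR called 0 and DESeq2 called 1, Cd3eap, and the median log2 fold change was 0.44 (1 at an unadjusted p under 0.05). The extremes were Cd3eap, the partner of Polr1e, at 1.96 (SE 0.60, edgeR adjusted p = 0.0724) and Znrd1 at 0.18. In the 7 tumors Cd3eap was at 0.96 (edgeR adjusted p = 0.201) and Znrd1 at -0.41 (edgeR adjusted p = 0.567). Cd3eap was between 4.78 and 68.7 CPM in the Myc-knockin and between 5.71 and 8.69 CPM in the p53-driven tumors, and it shares 106 exon bases with Ercc1 on the other strand. Among 5 subunits that all the nuclear polymerases share, edgeR called 0, though 4 had an unadjusted p under 0.05, and the median was 1.52. For 3 of them, Polr2e, Polr2f and Polr2h, the groups did not overlap and DESeq2 called a higher level. Their log2 fold changes of 1.52, 1.52 and 1.96 were 0.77, 0.84 and 0.78 in the 7 tumors, where edgeR called 0 of them. Among 5 genes of SL1 edgeR called 0 (3 at an unadjusted p under 0.05), DESeq2 called Taf1a, Taf1c and Taf1d higher, and the median was 1.16, from -0.14 for Tbp, the TATA-binding protein used by all the polymerases, to 1.96 for Taf1c (SE 0.54, edgeR adjusted p = 0.0564). Taf1c was at 1.21 in the 7 tumors (edgeR adjusted p = 0.199) and shares 584 exon bases with Dnaaf1.

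Of 6 genes for the elongation and termination of Pol I transcripts and the early handling of the ribosomal RNA precursor, 2 were called higher. At an unadjusted edgeR p under 0.05, 4 were higher and 1 was lower, and the median log2 fold change was 1.32. Nucleolin, encoded by Ncl, was between 430 and 1443 CPM in the Myc-knockin and between 255 and 374 CPM in the p53-driven tumors (log2 fold change 1.67, SE 0.42, edgeR adjusted p = 0.0449). Nolc1, a nucleolar chaperone of small nucleolar RNPs, was between 75.7 and 214 CPM and between 50.6 and 65.0 CPM (1.62, SE 0.32, edgeR adjusted p = 0.0266). Neither pair of ranges overlapped. In the 7 tumors Nolc1 was at 1.56 (edgeR adjusted p = 0.0451) and Ncl at 1.60 (edgeR adjusted p = 0.0650).

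Of 8 other Pol III subunits edgeR called 0 (2 at an unadjusted p under 0.05) and DESeq2 called 1, Polr3e, with a median log2 fold change of 0.36, and the lowest was 0.09 for Polr3f. Polr3gl, the paralog of Polr3g, was at 0.77 (SE 0.39). Of 14 other Pol III initiation factors edgeR called 0 (3 at an unadjusted p under 0.05) and DESeq2 called 1, Snapc4, 10 had a log2 fold change above 0 and the median was 0.32, from -0.51 for Snapc3 to 1.52 for Snapc4. Brf1, the TFIIIB subunit of transfer RNA genes, was at 0.58 (SE 0.27, edgeR adjusted p = 0.195). Maf1, the repressor that keeps Pol III from its promoters, was between 16.3 and 55.9 CPM in the Myc-knockin and between 11.1 and 13.7 CPM in the p53-driven tumors, without overlap, at 1.36 (SE 0.43, edgeR adjusted p = 0.0794), and DESeq2 called it higher. Its highest values were in M624 and M664, and it was at 0.55 in the 7 tumors. For comparison, 7 subunits specific to RNA polymerase II had a median of 0.34 with 0 called by edgeR or DESeq2 (2 at an unadjusted p under 0.05), from -0.14 for Polr2a to 1.13 for Polr2c.

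**Figure D4:**
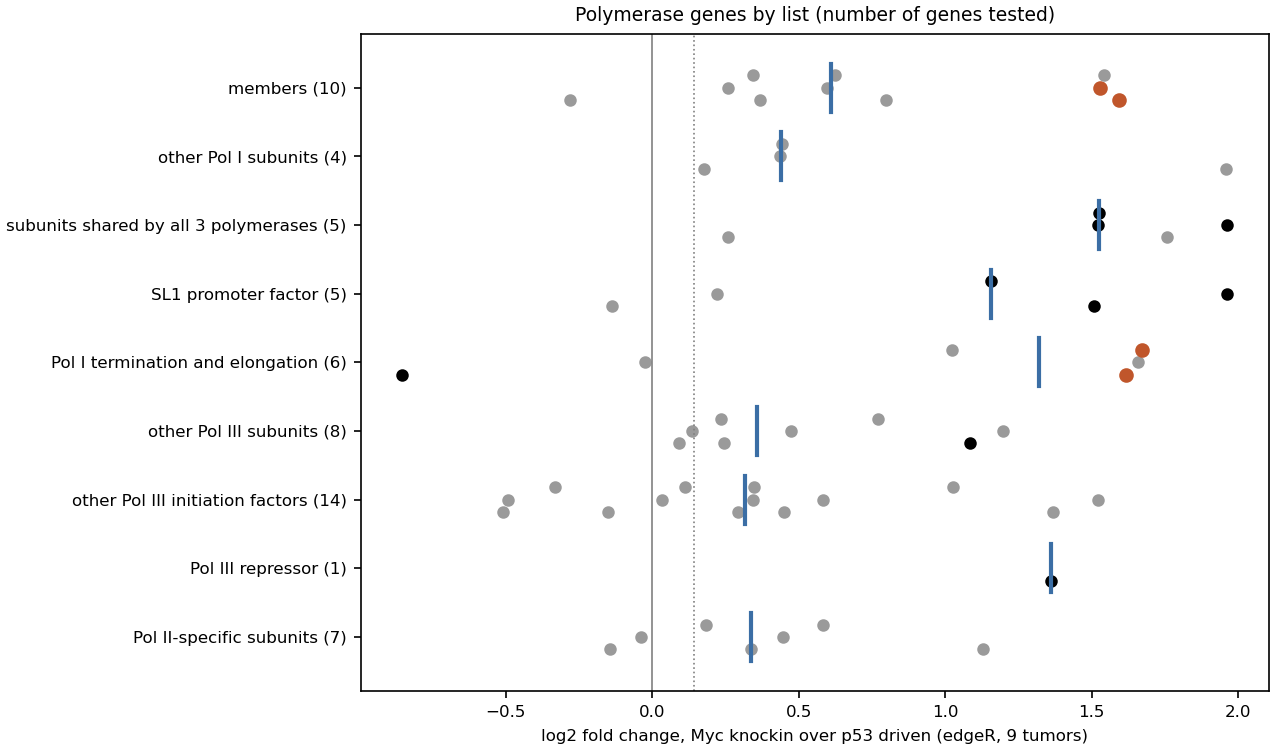
Log2 fold change of every tested gene by list, Myc-knockin over p53-driven, in all 9 tumors. Orange points are called higher, black points have groups that do not overlap, grey points are the rest, blue bars are list medians and the dotted line is the median of all genes tested. The called genes are Polr1b and Polr1e among the members and Ncl and Nolc1 among the genes of elongation and termination.

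The RNAs that Pol III makes could be followed only in part, since 5 of 9 listed Pol III transcripts were tested. The authors report enrichment for polyadenylated RNA, and the part of this in the low counts of the others was not tested. Whether the enrichment was alike in all 9 libraries was not tested either. In the 7 tumors Rn7sk was between 7522 and 9389 CPM in the Myc-knockin and between 6545 and 10667 CPM in the p53-driven tumors, a log2 fold change of 0.03 (SE 0.43). Rny3, a Y RNA, was between 3.48 and 9.85 CPM in the Myc-knockin and between 14.6 and 31.7 CPM in the p53-driven tumors, at -1.78 (SE 0.47, edgeR adjusted p = 0.0633, exact permutation p = 0.0571). The other tested transcripts overlapped between the groups in the 7 tumors, Rny1 at -0.12, Rn7s2 at -1.26 (SE 0.67) and Bc1 at 1.47 (SE 0.79). In M624 and M664 no read was counted on Rny1 or Rny3. Over all 9 tumors edgeR called 0 of the 5 transcripts, with 0 at an unadjusted p under 0.05, and DESeq2 called 0.

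Markers of some cell types and of proliferation differed between the groups. Of 8 osteoclast markers 6 were called lower, with summed levels between 124 and 2570 CPM in the Myc-knockin and between 2716 and 14151 CPM in the p53-driven tumors, and Dcstamp was at 0 in at least 1 Myc-knockin tumor. Of 12 macrophage markers 3 were called lower, with sums from 376 to 1224 and from 942 to 1637 CPM and none at 0. The log2 fold change was above 0 for 3 of the 12. At an unadjusted edgeR p under 0.05, 1 macrophage marker was higher and 4 were lower. Of all 15365 genes tested, 461 were called lower. Of 11 osteoblast markers 2 were called lower, Bglap and Bglap2, each at 0 in at least 1 Myc-knockin tumor, and the sums ran from 3610 to 41410 and from 65735 to 141320 CPM. Every Myc-knockin sum of these osteoblast markers was thus below every p53-driven sum. Of 8 proliferation markers 2 were called higher, Mcm5 and Ccnb1, with sums from 591 to 1360 and from 402 to 675 CPM. By the mean log2 CPM of these markers the Myc-knockin tumors started at 5.75, above the highest p53-driven tumor at 5.43. Of 6 tested leukocyte markers edgeR called 0, with 3 higher and 2 lower at an unadjusted p under 0.05. DESeq2 called S100a9 higher and Ptprc and Laptm5 lower, and the list's sums ran from 54.8 to 262 and from 225 to 400 CPM. Of 7 skeletal muscle markers 0 were called by edgeR or DESeq2 (0 at an unadjusted p under 0.05), and their sums ran from 5.45 to 2070 and from 22.1 to 5067 CPM. The part of these differences in the levels of Polr1b and Polr1e was not tested. Within the Myc-knockin group, M624 had the lowest osteoblast sum (3610 CPM), the highest proliferation sum (1360 CPM) and the highest Polr1b and Polr1e. M664 had the highest osteoblast and osteoclast sums, the lowest proliferation sum (591 CPM), the second highest Polr1b and the lowest Polr1e of the group. By mean log2 CPM of the proliferation markers M664 was not the lowest, at 6.08 beside 5.82 in M351 and 5.75 in M9.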

How the data were processed

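Whole-tumor RNA of 9 mice was sequenced, by the authors' account after oligo-dT enrichment and with a stranded kit. The authors used Trim Galore for trimming, STAR for alignment against mm10 and featureCounts for quantification. The deposited table holds unnormalized counts of 55367 genes. Sample labels do not name the columns: 6 names come from the study's supporting data, and M351, M9 and M664 were placed by the letter M, so columns were used only as members of a group.

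Counts were tested in R 4.3.3 with edgeR 4.0.16 (TMM, filterByExpr with a minimum count of 10, glmQLFit and glmQLFTest, Benjamini-Hochberg over 15365 genes). CPM are relative to TMM-normalized library sizes, with a prior count of 2 on the log2 scale. Exact permutation tests were two-sided over 126 arrangements. The p-values set the difference between the groups against the spread between these tumors. Whether the tumors differ in litter or handling is not given, and such a difference between the groups could not be told apart from genotype. Exon lengths, overlaps and positions came from GENCODE vM21, which holds 55034 of the table's identifiers, and promoters from RefSeq (GRCm38.p6), with entries for 9 of 10 members. Genomic background per kilobase of exon was estimated in each library from 1539 chemosensory receptor genes, and 3 counts, the floor, are 0.114 to 2.39 CPM. Intervals and floors cover counting error only.

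Alternatives were upper-quartile scaling, library size alone, removal of 12 satellite genes, no filter, at least 10 counts in every tumor, DESeq2 1.42.0, background subtraction, no fold threshold and libraries left out. Leaving out M9 with M624 and M664, joining background subtraction to that pair's removal, and the ratios were chosen after seeing the data. The members and lists were chosen with earlier results of these data known. Named are all members, called genes of the pathway lists (marker lists are given as counts and ranges), the extremes of 5 lists, paralogs, Maf1 and Myc, except that 1 result is not reported here. Polr2e, Polr2f, Polr2h, Polr3e, Taf1a, Taf1d, Cavin1, Ttf1, Rn7sk, Rn7s2, Rny1, Rny3, Bc1 and the markers named were picked after their values were seen. The fits were tested on simulated data.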

Additional observations from a re-analysis of the deposited data

Results flagged for a closer look

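Polr1e in M624 was flagged because its 37.4 CPM lay far from the other 4 Myc-knockin tumors, which ranged from 22.2 to 25.2 CPM. By chance about 1 in 20 groups is flagged in this way. With M624 left out Polr1e was still called.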

How the results depend on the processing

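The number of members called higher, 2 in the main result, was also 2 with upper-quartile scaling, without the satellite genes, with a minimum of 10 counts in each tumor (8 members tested), with DESeq2, after background subtraction, with no fold threshold and without M624 and M664. It was 0 with library size alone and 0 with no filter on low counts, where the median of all genes tested moved to 0.97 because genes near 0 entered. It was 5 without F187, M351, M408 and M9, beside 15.7% of the genes tested in that fit. With 1 tumor left out at a time it ran from 0 to 3, being 0 without any of the p53-driven tumors and 3 without M9. All genes called higher also moved, from 348 of 15365 tested in the main fit to 923 of 15315 without M9. They numbered between 162 and 417 without another Myc-knockin tumor and between 0 and 133 without a p53-driven tumor. Library size alone gave 50 of 15365 and no filter 218 of 47719. Upper-quartile scaling gave 626 of 15365, the count minimum 785 of 9283 and background subtraction 621 of 14441. Signs turned for Ubtf, at -0.056 without M624 and M664 (0.14 with background also subtracted), and for Polr1c, at -0.0085 without M624, M664 and M9. The cause was not tested. Of 198 values of single members under alternatives 180 kept direction and side of the threshold, 12 lost and 4 gained the call. No paired analysis was possible because the table's columns carry no replicate numbers. Depth limits Polr3g and Brf2 most, with as few as 4 and 9 counts.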
